A study of Mus musculus with 2 samples.

Results

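Immediate early transcription factors are genes that a cell switches on within minutes of a signal, before any new protein has to be made. The ones described here are 10 genes named by symbol, Fos, Fosb, Jun, Junb, Jund, Egr1, Atf3, Ier2, Nr4a1 and Klf2, of the 32285 genes in the count files, and all 10 had unique molecular identifiers (UMIs) in both libraries. Fos and Jun family proteins pair into the AP-1 transcription factor, and Atf3 joins the same family of partners. Egr1 is a zinc finger factor induced through MAP kinases and serum response factor, Ier2 is a nuclear protein induced in the same way, Nr4a1 is an orphan nuclear receptor, and Klf2 is a Krüppel-like factor best known in endothelium under flow and in resting lymphocytes. In lung, as in other tissues, these genes respond to growth factors, stretch and injury, and they are also known to be induced when tissue is taken apart with enzymes for cell sorting.

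The data are single-cell RNA-seq of 1 control and 1 HHIPCKO mouse lung at P14. Both mice were Gli1creERT/+ and Hhipflox/flox, so the allele that drives CreER from Gli1, a gene active in Hedgehog-responsive stroma, was present in each. The HHIPCKO mouse received tamoxifen from birth, which activates CreER and deletes the Hedgehog inhibitor Hhip in Gli1-expressing cells, and the control mouse received oil. Mesenchymal cells without CD31, CD45 and CD326, and epithelial cells, were sorted after enzymatic digestion and pooled for each mouse. With 1 mouse per condition, mouse, sex, agent, deletion and library cannot be told apart, no test was made, and every interval covers counting error only.

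The control library held 10999 cells and 43291709 UMIs, with a median of 3531 UMIs per cell. The HHIPCKO library held 12350 cells and 52338969 UMIs, with a median of 3720. The libraries shared 193 cell barcodes, which is 1.75% of the control and 1.56% of the HHIPCKO barcodes. Hhip, the deleted gene, had 1815 and 309.7 CPM (log2 ratio -2.55, 95% interval -2.62 to -2.48) in the cells with ductal myofibroblast markers and 2439.7 and 648 CPM (log2 ratio -1.91, 95% interval -2.05 to -1.78) in those with peribronchial or airway smooth muscle markers, in the order control and HHIPCKO. Hhip was itself among the markers that named the ductal myofibroblast cells, and it was not held out of clustering. Whether the counted reads lie in the deleted part of Hhip was not examined. Xist, transcribed from the inactive X chromosome of females, was found in 12 control cells (0.109%) against 55.7% of those from the HHIPCKO mouse, so sex goes with condition in every comparison.

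Cells were clustered on genes other than the 10 and their relatives, and clusters were named from marker genes. The 11 classes with at least 50 cells in each library were, with control and HHIPCKO cells, ALMF-like (alveolar myofibroblast, 1142 and 344), DMF-like (ductal myofibroblast, 1584 and 2283), peribronchial fibroblast or airway smooth muscle-like, called peribronchial-like here (175 and 292), adventitial fibroblast-like (820 and 907), alveolar fibroblast-like (438 and 1540), pericyte-like (430 and 723), mesothelial-like (290 and 295), AT2-like (3278 and 2974), ciliated-like (256 and 129), immune-like (498 and 220) and red cell-like (214 and 192). Which cells fell in the myofibroblast classes depended on clustering. ALMF-like had 1059 control and 1189 HHIPCKO cells with each library clustered alone. At clustering resolution 0.5 ALMF-like had 2693 and 368 cells, and DMF-like 154 and 2503. The ALMF-like and DMF-like ratios therefore do not compare a fixed set of matched cells. Different clusters held most of the DMF-like cells of each library. Cluster 4, led by Hhip, had 1535 control and 31 HHIPCKO cells, and cluster 2, led by P4ha3 and Thbs2, had 49 control and 2252 HHIPCKO cells. Most AT2-like cells were likewise in cluster 0 for the control (2615 control and 402 HHIPCKO cells) and in cluster 1, led by Lcn2, for HHIPCKO (274 control and 2372 HHIPCKO cells). Of 34 clusters, 14 stayed unnamed, with 15.7% of control and 17.9% of HHIPCKO cells, and 7 of these had markers of another lineage beside their own. Red cell-like cells, which make little RNA beyond haemoglobin, are given beside the other classes. Sftpc, a surfactant gene of AT2 cells that can show free RNA, had 36571 and 44929 CPM in red cell-like, 42792 and 46706 CPM in ciliated-like and 49313 and 53491 CPM in immune-like cells, against 1302 to 5194 CPM over both libraries in the 7 mesenchymal and mesothelial classes. The level of a gene in red cell-like cells is therefore no measure of its free RNA in those 7.

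The summed level of the 10 genes, as UMIs per 1000000 UMIs of the class and library (CPM), ranked the classes in an order that differed in part between the libraries. Adventitial fibroblast-like cells were in place 4 in the control and 8 in HHIPCKO, and DMF-like cells in 3 and 1. In the control library immune-like cells had the highest sum, at 9172 CPM, followed by peribronchial-like (7641), DMF-like (7074), adventitial fibroblast-like (5939), AT2-like (5447), ALMF-like (5360.0), ciliated-like (4877) and mesothelial-like cells (4183). Of these neighbours only AT2-like and ALMF-like cells had overlapping Poisson intervals. Alveolar fibroblast-like cells had 1987 CPM and pericyte-like cells 1153 CPM, on either side of red cell-like cells at 1646 CPM.

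In the HHIPCKO library the order began with DMF-like cells (9049 CPM), immune-like (8682) and peribronchial-like cells (8469), the last 2 with overlapping intervals. AT2-like (7943), ALMF-like (7517), ciliated-like (7278), mesothelial-like (6730.3) and adventitial fibroblast-like cells (5994) followed, and among them the intervals of ALMF-like and ciliated-like cells overlapped. Alveolar fibroblast-like (1757) and pericyte-like cells (1631) were both under red cell-like cells (2596). The 2 stromal classes with low sums, alveolar fibroblasts and pericytes, were the same in both libraries.

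**Figure D1:**
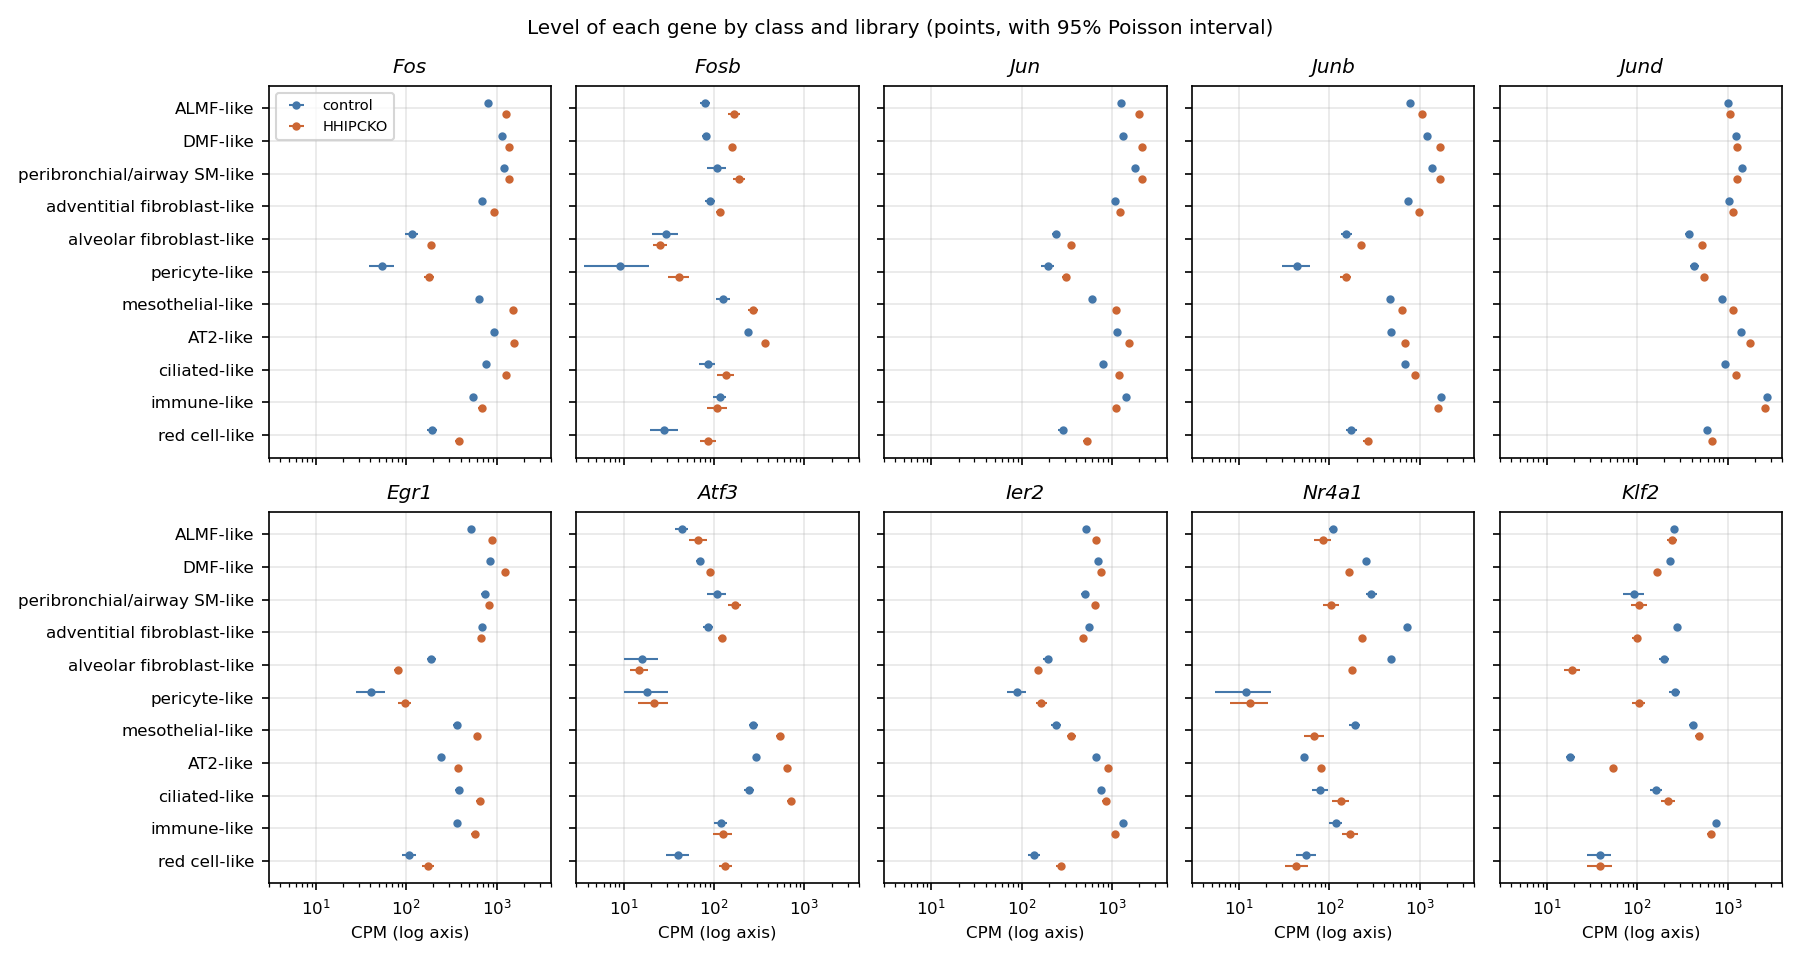
Level of each gene in CPM on a log axis, by class (rows), in the control (blue) and HHIPCKO (orange) library, with 95% Poisson intervals for counting error. Pericyte-like and alveolar fibroblast-like cells sit low for most genes, while Nr4a1 is highest, among the classes shown, in adventitial fibroblast-like cells of the control, at 712 CPM.

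Within the immune-like class the sum differed widely between clusters. Cluster 23, led by the chemokine genes Ccl4 and Ccl3, had 16072 and 19695 CPM, and cluster 13, led by B cell genes such as Cd79a, had 6178 and 5975 CPM, in the order control and HHIPCKO. The immune-like level was thus a mix of unlike cells, which the CD45 gate was meant to remove.

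Between the libraries, the summed level was higher in HHIPCKO cells in 8 of 10 classes other than red cell-like, by less than 2-fold in each. The log2 ratio of HHIPCKO over control was 0.69 (95% interval 0.63 to 0.74) in mesothelial-like, 0.58 (95% interval 0.52 to 0.63) in ciliated-like, 0.54 (95% interval 0.53 to 0.56) in AT2-like, 0.50 (95% interval 0.39 to 0.61) in pericyte-like, 0.49 (95% interval 0.45 to 0.52) in ALMF-like and 0.36 (95% interval 0.34 to 0.37) in DMF-like cells. It was 0.15 (95% interval 0.10 to 0.20) in peribronchial-like and 0.01 (95% interval -0.02 to 0.04) in adventitial fibroblast-like cells, where it turned to -0.08 as a mean over cells. Alveolar fibroblast-like (-0.18) and immune-like cells (-0.08) had slightly lower sums in HHIPCKO, the former turning to 0.0475 with no gene held out and 0.0311 without doublets, and the latter to 0.13 with cells thinned to 2000 UMIs. The alveolar fibroblast-like sum was 1799 and 1740 CPM in cluster 3 and 3736 and 2046 CPM in the shallow cluster 17. Of the immune-like clusters, 23 had the higher sum in HHIPCKO but 133 control and 45 HHIPCKO cells. Clusters 13 and 31 (4441 and 4331 CPM) had slightly lower sums. The 6 red cell markers, led by Hbb-bs, summed to 374 and 3929 CPM in peribronchial-like and 418 and 1503 CPM in ALMF-like cells, and the 8 AT2 markers, led by Sftpc, to 5846 and 1946 CPM and 2884 and 1579 CPM, with none at 0 but 1 red cell marker in ALMF-like HHIPCKO cells. In mesothelial-like cells the AT2 markers summed to 3306 and 1644 CPM with none at 0, and median depth was 3509 and 2439 UMIs. DMF-like cells had AT2 markers at 2912 and 1679 CPM and red cell markers at 481 and 736 CPM. AT2-like cells had red cell markers at 300 and 665 CPM. The median mitochondrial share was higher in HHIPCKO in every class, at 0.68% and 0.908% in mesothelial-like and 0.406% and 0.656% in DMF-like cells. Their part in the ratios was not tested. In red cell-like cells the ratio was 0.66, beside a median of 0.68 over all measured genes there. The ALMF-like and DMF-like values depended on clustering: with the 10 genes and their relatives allowed into clustering they were 0.03 and -0.20, so the DMF-like direction reversed. The ALMF-like value was 0.97 with each library clustered alone and 0.86 with genes centred within library.

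A gene was measured in a class if it was detected in at least 10% of cells in either library with at least 50 UMIs over both, and measured genes that differed at least 2-fold were counted. The percentages are the shares of all measured genes counted by this rule. In AT2-like cells all 10 were measured, 2 were at least 2-fold higher (Atf3 and Klf2) against 0.882% of all genes, and none lower against 0.267%. ALMF-like cells had 1 of 9 measured members higher (Fosb, 1.48% of all genes) and none lower (0.937%), a count that became 6 higher with each library clustered alone, 3 with genes centred and 0 higher and 2 lower with no gene held out. DMF-like cells had none higher (2.09%) or lower (1.13%). Adventitial fibroblast-like cells had none higher (1.17%) and 2 lower (Nr4a1 and Klf2, 0.603%). Alveolar fibroblast-like cells, with 8 measured, had none higher (1.06%) and 3 lower (Egr1, Nr4a1 and Klf2, 1.08%). Peribronchial-like cells had none higher (2.81%) and 1 lower (Nr4a1, 2.21%), and mesothelial-like cells had 2 higher (Fos and Fosb, 1.61%) and 1 lower (Nr4a1, 1.41%).

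Pericyte-like cells had 3 of 7 measured members higher (Fos, Junb and Egr1, 1.32% of all genes) and 1 lower (Klf2, 0.659%), ciliated-like cells 1 higher (Atf3, 0.94%) and none lower (1.07%), and immune-like cells none higher (1.46%) or lower (1.88%). Red cell-like cells had 2 higher (Fosb and Atf3) where 25.6% of all genes were, and none lower (1.26%). Over the 10 classes without red cells, 94 gene and class pairs were measured, 9 past 2-fold higher and 8 lower. Of these 17, 6 reached 10% of cells only in the library where they were higher, so their shares of cells had to differ, though not by 2-fold. They were Fos, Junb and Egr1 in pericyte-like, Klf2 in AT2-like, and Egr1 and Klf2 in alveolar fibroblast-like cells. The same was true of Fosb and Atf3 in red cell-like cells. With 10% asked of both libraries, a rule chosen after seeing the data, 88 pairs were left, 5 past 2-fold higher and 6 lower. Under this rule 0.513% to 1.66% of all genes were higher in these 10 classes, and 0.0986% to 1.27% lower. The pairs then higher belonged to Fos, Fosb and Atf3, and those lower to Nr4a1 and Klf2.

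**Figure D2:**
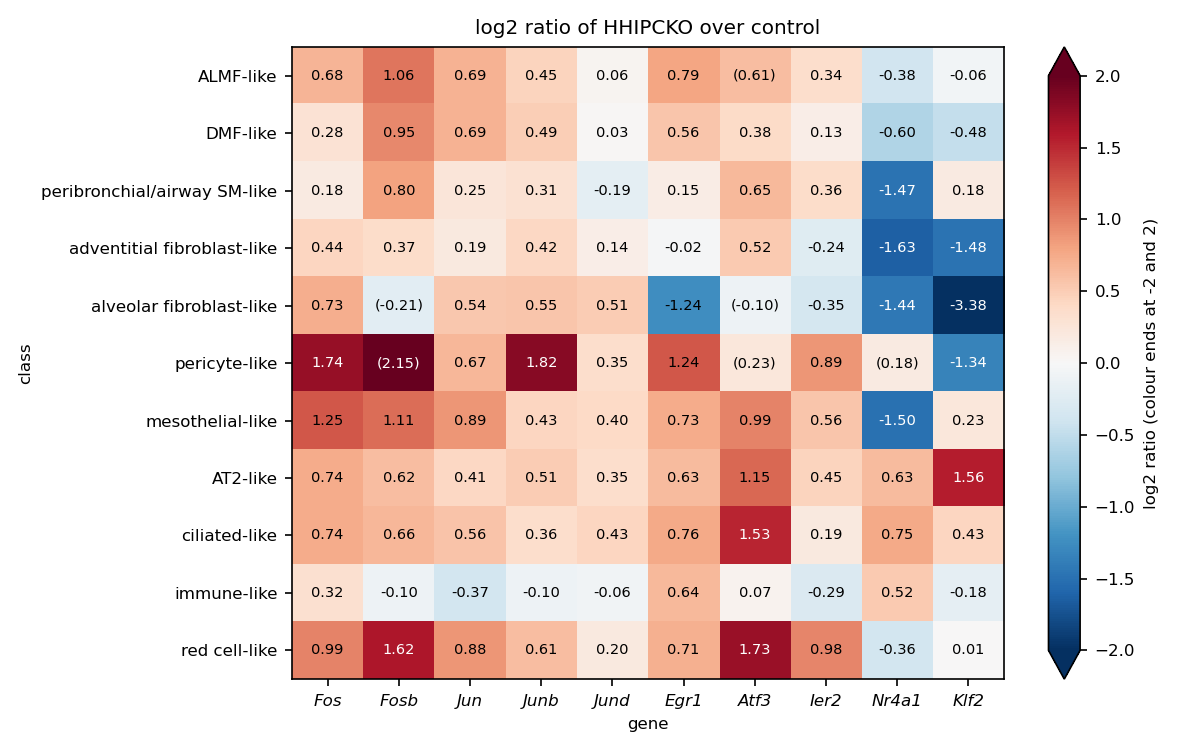
Log2 ratio of HHIPCKO over control for each gene (columns) and class (rows), with red for higher and blue for lower in HHIPCKO and the colours ending at -2 and 2. Values in brackets are pairs under the detection rule. Nr4a1 and Klf2 hold most of the blue cells, down to -3.38 for Klf2 in alveolar fibroblast-like cells.

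Fos, an AP-1 subunit that pairs with JUN proteins and not with itself, was higher in HHIPCKO in all 10 classes without red cells, from 0.18 in peribronchial-like to 1.74 in pericyte-like cells, though clustering each library alone, or with no gene held out, turned it in 3 of them, DMF-like, alveolar fibroblast-like and immune-like cells. In AT2-like cells it had 932 CPM in the control and 1553 CPM in the HHIPCKO library, a log2 ratio of 0.74 (95% interval 0.71 to 0.77). ALMF-like cells had 799 and 1277 CPM (log2 ratio 0.68, interval 0.58 to 0.77), and DMF-like cells 1134 and 1379.8 CPM (log2 ratio 0.28, interval 0.23 to 0.33). Mesothelial-like cells had 643 and 1525 CPM (log2 ratio 1.25, interval 1.11 to 1.38), which as a mean over cells was 0.90 and under 2-fold, as was Fosb there at 0.56. The share of mesothelial-like cells with a Fos UMI went the other way, at 37.6% and 32.9%. Pericyte-like Fos had 53.6 and 179 CPM, beside pericyte-like Junb at 43.2 and 152 CPM and Egr1 at 40.6 and 96.1 CPM. Pericyte-like Fos reached the 10% of cells asked for only in HHIPCKO, at 6.51% and 10.2%. Alveolar fibroblast-like Fos had 114 and 189 CPM, in the direction that turned with other clustering. Red cell-like Fos had 194 and 386 CPM. The part of free RNA in these levels was not tested.

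Fosb, a close relative of Fos, was higher in 7 of 8 classes where it was measured. It had 79.6 and 166 CPM in ALMF-like (log2 ratio 1.06, interval 0.79 to 1.33, and 0.12 with no gene held out of clustering), 81.6 and 158 CPM in DMF-like (log2 ratio 0.95, interval 0.79 to 1.13) and 238 and 367 CPM in AT2-like cells (log2 ratio 0.62, interval 0.56 to 0.68). Jun, the main partner of Fos, was higher in 9 of 10 classes and lower in immune-like cells (log2 ratio -0.37, interval -0.50 to -0.24). Its levels were 1245 and 2005 CPM in ALMF-like (log2 ratio 0.69, interval 0.61 to 0.76), 1309.9 and 2117 CPM in DMF-like (log2 ratio 0.69, interval 0.65 to 0.74) and 1143 and 1519 CPM in AT2-like cells (log2 ratio 0.41, interval 0.38 to 0.44).

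Junb, which shares Jun's binding partners, was higher in 9 of 10 classes, with 1203 and 1691 CPM in DMF-like (log2 ratio 0.49, interval 0.44 to 0.54) and 475 and 677 CPM in AT2-like cells (log2 ratio 0.51, interval 0.47 to 0.55). Immune-like cells were the exception (log2 ratio -0.10), though Junb was higher in HHIPCKO within their clusters 13, 23 and 31. Its levels there were 744 and 795, 3835 and 4693, and 467 and 560 CPM. Jund, the least inducible of the JUN genes, was higher in 8 of 10 classes. It differed little in 2 of the classes, with 1247 and 1270.1 CPM in DMF-like (log2 ratio 0.03, interval -0.02 to 0.07) and 1023 and 1065 CPM in ALMF-like cells (log2 ratio 0.06, interval -0.04 to 0.15), and in both the sign changed with a mean over cells. AT2-like cells had 1397 and 1776 CPM (log2 ratio 0.35, interval 0.32 to 0.37), and alveolar fibroblast-like cells 370.3 and 527 CPM (log2 ratio 0.51, interval 0.37 to 0.65).

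Egr1 was higher in 8 of 10 classes. Its level was 514 and 889.9 CPM in ALMF-like (log2 ratio 0.79, interval 0.68 to 0.90), 849 and 1250.4 CPM in DMF-like (log2 ratio 0.56, interval 0.50 to 0.61), 384 and 653 CPM in ciliated-like (log2 ratio 0.76, interval 0.57 to 0.96) and 243 and 375 CPM in AT2-like cells (log2 ratio 0.63, interval 0.57 to 0.69). Adventitial fibroblast-like cells held it at 683 and 672 CPM (log2 ratio -0.02, interval -0.11 to 0.06), while the share of cells with a UMI was 64.6% and 41.8%. Alveolar fibroblast-like cells went the other way, with 189.9 and 80.3 CPM (log2 ratio -1.24, interval -1.47 to -1.01). The difference was larger in the shallow cluster 17, of 107 control and 265 HHIPCKO cells, where Egr1 had 846 and 135 CPM, than in cluster 3, which had 119 and 77.0 CPM. The class ratio was under 2-fold with every barcode (-0.15), at resolution 0.5 and 2 (-0.33 and -0.50), with genes centred within library (-0.51), without doublets (-0.44) and as a mean over cells (-0.88), and it turned to 0.16 with no gene held out of clustering.

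Atf3, a stress-induced member of the ATF family that often represses transcription, was past 2-fold higher in both epithelial classes and in red cell-like cells. It had 291 CPM in the control and 643 CPM in the HHIPCKO library in AT2-like cells (log2 ratio 1.15, interval 1.09 to 1.20), ranking 26 of 4873 measured genes by ratio, and 244 and 703 CPM in ciliated-like cells (log2 ratio 1.53, interval 1.31 to 1.75), ranking 15 of 6063. Red cell-like cells had lower levels and the larger ratio, with 40.1 and 133 CPM (log2 ratio 1.73, interval 1.25 to 2.24). Mesothelial-like cells had 271 and 538 CPM (log2 ratio 0.99, interval 0.77 to 1.20), and DMF-like cells only 69.9 and 91.3 CPM (log2 ratio 0.38, interval 0.19 to 0.58). Ier2 was higher in 7 of 10 classes, with 657 and 899 CPM in AT2-like cells (log2 ratio 0.45, interval 0.42 to 0.49), and lower in adventitial fibroblast-like (log2 ratio -0.24, interval -0.33 to -0.14), alveolar fibroblast-like (log2 ratio -0.35, interval -0.56 to -0.15) and immune-like cells (log2 ratio -0.29, interval -0.43 to -0.16). Within the immune-like class Ier2 was higher in HHIPCKO in cluster 13 (380 and 443 CPM) and cluster 23 (3228 and 3389 CPM). It was lower in cluster 31 (660 and 625 CPM). Cluster 23, with the highest level, had 133 control and 45 HHIPCKO cells.

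Nr4a1 was lower in HHIPCKO cells in each stromal class where it was measured. Adventitial fibroblast-like cells, with the highest control level of the 11 classes, had 712 CPM in the control and 231 CPM in the HHIPCKO library, a log2 ratio of -1.63 (95% interval -1.75 to -1.51) that ranked 5635 of 5640 genes, with 1 the highest. Alveolar fibroblast-like cells had 482 and 178 CPM (log2 ratio -1.44, interval -1.58 to -1.29), peribronchial-like 292 and 105 CPM (log2 ratio -1.47, interval -1.83 to -1.12) and mesothelial-like 192 and 68.0 CPM (log2 ratio -1.50, interval -1.94 to -1.08). The differences were smaller in DMF-like (252 and 166 CPM, log2 ratio -0.60, interval -0.72 to -0.49) and ALMF-like cells (109 and 84.1 CPM, log2 ratio -0.38, interval -0.72 to -0.05). Unnamed cluster 9, with 405 control and 430 HHIPCKO cells and leading genes of smooth muscle such as Acta2, had 745 and 267 CPM. The opposite direction held in AT2-like (52.3 and 80.7 CPM, log2 ratio 0.63, interval 0.50 to 0.75), ciliated-like (log2 ratio 0.75, interval 0.31 to 1.19) and immune-like cells (log2 ratio 0.52, interval 0.13 to 0.90). Red cell-like cells had 55.4 and 43.2 CPM, which is no measure of free Nr4a1 RNA in the stromal classes. In adventitial and alveolar fibroblast-like cells Nr4a1 was lower in HHIPCKO under every alternative.

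Klf2 gave the ratio farthest from 0 of all measured pairs. In alveolar fibroblast-like cells it had 199 CPM in the control and 19.1 CPM in the HHIPCKO library, from 274 and 99 UMIs, a log2 ratio of -3.38 (95% interval -3.73 to -3.04), ranking 5261 of 5263 genes. Red cell-like cells had 38.4 and 38.7 CPM, which is no measure of free Klf2 RNA in alveolar fibroblast-like cells. Both clusters of the class showed it, cluster 3 with 201 and 19.3 CPM and cluster 17 with 187 and 17.3 CPM. The direction was the same under every alternative. Adventitial fibroblast-like cells had 275 and 98.7 CPM (log2 ratio -1.48, interval -1.66 to -1.29), pericyte-like 262 and 103 CPM (log2 ratio -1.34, interval -1.66 to -1.02, and -0.88 with thinned cells) and DMF-like 231 and 166 CPM (log2 ratio -0.48, interval -0.60 to -0.36). ALMF-like (log2 ratio -0.06, interval -0.26 to 0.14) and peribronchial-like cells (log2 ratio 0.18, interval -0.29 to 0.67) had intervals that held 0, the former turning to 0.08 with thinned cells. Klf2 was higher in HHIPCKO in mesothelial-like (414 and 486 CPM, log2 ratio 0.23) and ciliated-like cells (163 and 220 CPM, log2 ratio 0.43). With thinned cells these turned to -0.12 and -0.06.

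Because Klf2 marks endothelium, the 7 endothelial markers were read beside it. Their sum was 82.9 and 73.1 CPM in alveolar fibroblast-like, 202 and 189.6 CPM in adventitial fibroblast-like and 87.7 and 79.8 CPM in pericyte-like cells, in the order control and HHIPCKO. Ramp2, which stroma also makes, was the most abundant of them, except for Kdr in pericyte-like HHIPCKO cells, and 3 of the 7 were at 0 in alveolar fibroblast-like control cells. The part of endothelial RNA in the Klf2 values was not tested. Unnamed cluster 21, led by Cldn5 and Cdh5, had 151 control and 99 HHIPCKO cells and Klf2 at 1344 and 834 CPM. In AT2-like cells Klf2 was higher in HHIPCKO (18.2 and 54.0 CPM, log2 ratio 1.56, interval 1.37 to 1.77), with 3.48% and 8.91% of thinned cells holding a UMI against 4.9% and 3.37% of red cell-like cells. Haemoglobin and other red cell markers summed to 827 and 14996 CPM in pericyte-like cells, and their part in the pericyte ratios was not tested.

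Within a class the genes were spread unevenly over cells. Cells were thinned to 2000 UMIs, and those under that depth were left out, 282 control and 286 HHIPCKO cells of the DMF-like class. There the median cell held 6 and 6 UMIs of the 10 genes, with upper quartiles of 14 and 21, and the 10% of cells with most held 43.0 and 43.5% of them. ALMF-like cells (119 and 42 left out) had medians of 5 and 5 and upper quartiles of 9 and 11.8. In both myofibroblast classes the medians were equal between libraries, and the upper part of the distribution was higher in HHIPCKO. AT2-like cells (436 and 237 left out) differed throughout, with medians of 10 and 16, lower quartiles of 6 and 11 and upper quartiles of 15 and 21 UMIs. Adventitial fibroblast-like cells had medians of 8 and 5 while the 10% of cells with most began at 26.7 and 36.1 UMIs, so that their near-equal sums covered unlike distributions.

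Shares of cells with a UMI set AT2-like cells apart from the myofibroblasts. A thinned AT2-like cell held a median of 5 and 6 of the 10 genes, and 57.4 and 79.4% of cells held 5 or more. DMF-like cells held a median of 3 and 3 with 35.1 and 33.2% at 5 or more, and red cell-like cells 1 and 1 with 8.33 and 20.8%, at median depths of 4988 and 5219.5 UMIs before thinning against 2754 and 3098 in DMF-like cells. In AT2-like cells Fos had a UMI in 76.9% and 90.6% of cells, 70.9% and 86.4% after thinning, and Atf3 in 49.7% and 75.8%, 36.0% and 58.2% after thinning. Fos was found in 34.1% and 37.5% of thinned DMF-like cells and 10.8% and 24.7% of red cell-like cells. Nr4a1 was in 60.6% and 32.9% of adventitial fibroblast-like cells, 52.7% and 26.7% after thinning (146 and 187 left out). The thinned red cell-like shares, 4.41% and 8.43% (10 and 14 left out), do not measure free RNA there. Klf2 was in 30.6% and 4.94% of alveolar fibroblast-like cells, 23.1% and 2.91% after thinning (113 and 336 left out).

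**Figure D3:**
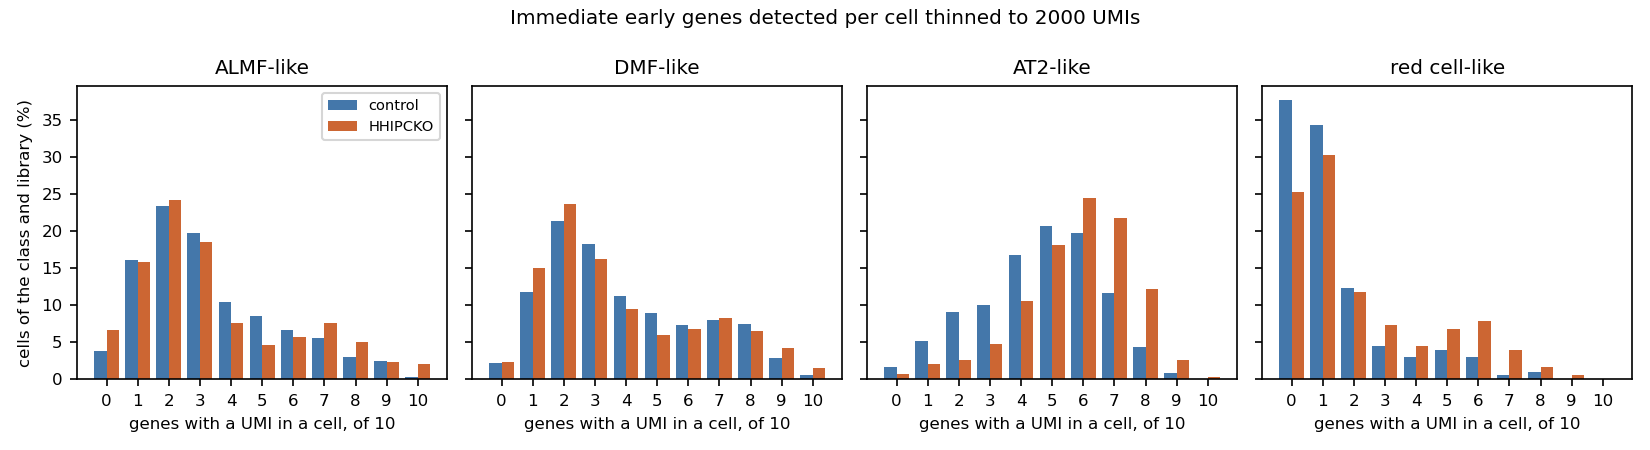
Share of cells (bars, %) by the number of the 10 genes with a UMI, in cells thinned to 2000 UMIs, for the control (blue) and HHIPCKO (orange) library. AT2-like cells shift from a median of 5 to 6 genes, while both myofibroblast classes stay at 3 and red cell-like cells at 1.

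Related gene lists were read in the same way, beside medians over all measured genes of 0.03 in AT2-like, 0.02 in DMF-like and 0.01 in ALMF-like cells. The 10 genes themselves had medians of 0.62, 0.33 and 0.45 in that order. Of 16 other immediate early transcription factors, 7, 9 and 6 were measured, with medians of 0.68, 0.19 and 0.65. Over 10 classes 4 of 69 gene and class pairs were past 2-fold higher and 1 lower, in classes where 0.882% to 2.81% of all measured genes were higher and 0.267% to 2.21% lower. Klf9, a factor induced by glucocorticoid and thyroid hormone, was higher in 10 of 10 classes, at 0.46 to 0.98, and Cebpd in 10 of 10. Cebpb was past 2-fold higher in ALMF-like (1.07) and DMF-like cells (1.19). Klf6 was lower in 7 of 10 classes and past 2-fold in none, with 0.997 in AT2-like and -0.43 in DMF-like cells.

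Of 28 immediate early genes that are not transcription factors, 18, 21 and 21 were measured in the same classes, with medians of 0.43, 0.27 and 0.34. They split in direction, with 15 of 187 gene and class pairs past 2-fold higher and 15 lower over the same classes, against those shares of all measured genes. Errfi1, an inhibitor of EGF receptor signalling, was higher in 10 of 10 classes, up to 2.02 in alveolar fibroblast-like cells. Nfkbia, the NF-κB inhibitor, was higher in 9 of 10, past 2-fold in 4. Ccn2, a matricellular gene responsive to YAP and TGF-β, was lower in 7 of 8, past 2-fold in 4, with -1.02 in DMF-like and -2.23 in peribronchial-like cells. Plk2 was lower in AT2-like (-1.18), DMF-like (-1.24) and ALMF-like cells (-1.02).

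In the remaining lists pairs past 2-fold were about as rare as among all measured genes. AP-1 partners outside the 10 genes had medians of 0.25, -0.06 and -0.23 in these 3 classes, and 0 pairs past 2-fold higher and 1 lower of 90. MAP kinase feedback genes had -0.07, -0.08 and 0.00, with 0 higher and 1 lower of 43, and over 10 classes their medians ran from -0.67 in mesothelial-like to 0.44 in alveolar fibroblast-like cells. Dusp1, the phosphatase that is itself immediate early, had 0.45, -0.08 and 0.15. Upstream kinases had 0.13, 0.03 and 0.01, with no pair of 94 past 2-fold, and upstream transcription factors 0.06, -0.06 and 0.04, the first from 1 gene, with none of 50. Heat shock genes, some of which can also be a sign of stress during digestion, had negative medians in 10 of 10 classes, from -0.38 to -0.11. Hspa8 was lower in all 10. Hspb1 was higher in 5 and lower in 3 of 8 classes, and Hspa1a and Hspa1b were measured in only 2 classes each. Past 2-fold were 2 higher and 2 lower of 96 pairs. The higher ones were the inducible Hspa1a (1.11) and Hspa1b (1.09) in adventitial fibroblast-like cells, and the lower ones Hspa1b (-1.08) and Hsph1 in peribronchial-like cells. The heat shock sum was 2939 and 2474 CPM in AT2-like and 4265 and 3644 CPM in DMF-like cells. The part of digestion or sorting in the differences was not tested.

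Over the 11 classes and both libraries, 22 points that share library and depth, the level of most of the 10 genes followed the sum of the other 9. Pearson's r of log2(CPM + 1) was 0.942 for Junb, 0.941 for Jun, 0.919 for Ier2, 0.904 for Egr1, 0.893 for Fos, 0.852 for Jund and 0.847 for Fosb. It was lower for Atf3 (0.646), Nr4a1 (0.384) and Klf2 (0.312). Among 9707 genes outside the lists with a mean of at least 10 CPM, those most like the sum were Cdc42ep3 (0.879), Fbxo6 (0.875), Nasp (0.867), Eef1a1 (0.863), Bend5 (0.860), Rplp0 (0.858), Smim3 (0.855), Paxx (0.847), Rflnb (0.832) and Tpt1 (0.832). With Spearman's rho, 1 of these 10 genes, Eef1a1, was again among the 10 most alike.

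In GENCODE vM21 on GRCm38, the members are short genes for the most part, and none overlaps another gene on its own strand. Junb (chr8:84974484-84978718), Jund (chr8:70698949-70700616), Ier2 (chr8:84661331-84662852) and Klf2 (chr8:72319033-72321656) lie on chromosome 8, Fos is at chr12:85473890-85477273, Fosb at chr7:19302696-19310051, Jun at chr4:95049034-95052222, Atf3 at chr1:191170296-191218039 and Nr4a1 at chr15:101254269-101274795. Jun, Ier2 and Jund have 1 exon in this annotation. Genes on the other strand overlap Jun (Junos), Junb (Prdx2), Jund (Gm11175) and Atf3 (Gm24748).

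RefSeq promoter sequences on GRCm38.p6 matched 8 of the 10 genes, all but Egr1 and Ier2. They end at RefSeq starts, which can differ from the GENCODE positions above. The Nr4a1 and Atf3 stretches lie inside the GENCODE gene. The Jund stretch ends at base 70697738, against a GENCODE start of 70698949. Klf2 holds 29, Atf3 7 and Fosb 6 bases of GENCODE exon. The 250 bases before the start were searched on both strands for the CArG box of serum response factor (CCWWWWWWGG, with W for A or T, 1.47% of 32851 promoters), the cyclic AMP response element TGACGTCA (1.55%), the AP-1 letters TGANTCA (6.75%), the EGR letters GCGNGGGCG (4.7%) and TATAAA (12.4%). The EGR letters were found in 3 of the 8, Fosb, Nr4a1 and Klf2, TATAAA in Fos, and none of the other exact letters in any. Sites farther from the start, or with letters other than these, were not searched, so their absence is not shown. In Nr4a1 the match is on the minus strand and so reads CGCCCCCGC. The promoters of Fos, higher in HHIPCKO in most classes, and of Nr4a1 and Klf2, past 2-fold lower in several stromal classes, are printed with the matches in capitals. They begin 33 bases before the RefSeq start in Fos, 60 in Nr4a1 and 199 in Klf2.
Fos, chr12:85473640-85473889, plus strand: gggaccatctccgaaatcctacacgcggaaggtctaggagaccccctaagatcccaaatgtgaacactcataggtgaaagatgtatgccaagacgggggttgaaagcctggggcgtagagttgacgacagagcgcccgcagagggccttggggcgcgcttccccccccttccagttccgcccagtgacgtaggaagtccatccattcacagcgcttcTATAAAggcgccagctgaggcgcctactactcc
Nr4a1, chr15:101266596-101266845, plus strand: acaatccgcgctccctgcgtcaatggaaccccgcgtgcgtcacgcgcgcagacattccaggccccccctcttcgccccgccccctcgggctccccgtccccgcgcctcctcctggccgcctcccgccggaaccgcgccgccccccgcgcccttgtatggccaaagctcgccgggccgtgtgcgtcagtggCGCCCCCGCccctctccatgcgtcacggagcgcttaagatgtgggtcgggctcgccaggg
Klf2, chr8:72318812-72319061, plus strand: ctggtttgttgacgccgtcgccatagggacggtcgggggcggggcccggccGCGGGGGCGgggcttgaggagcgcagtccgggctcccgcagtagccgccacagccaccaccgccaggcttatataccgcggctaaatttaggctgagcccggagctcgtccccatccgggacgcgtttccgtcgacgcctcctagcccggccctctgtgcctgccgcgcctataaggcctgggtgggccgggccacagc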

How the data were processed

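Libraries were made with a 10x Genomics kit, named as 5′ in the series text and 3′ in the sample labels. The authors used Cell Ranger with mm10 to turn reads into UMI counts, 6.1.0 per the file headers and 3.1.0 per the submitters' processing notes, and deposited raw counts of called cells. Kept cells had 200 to 6000 genes and no more than 10% of UMIs from mitochondria (10917 control, 12115 HHIPCKO). Both libraries were clustered together on log-normalized counts with 2000 variable genes, 30 principal components, 20 neighbours and Leiden resolution 1, without integration or doublet removal and with 95 immediate early, feedback, AP-1 and heat shock genes held out. Names came from markers of 18 classes, with thresholds set after the clusters were seen (a mean standardized score of 1, under 0.5 for another lineage, a second class under 0.7 of the best, 3 markers detected). UMIs were summed per class and library. CPM have exact Poisson, log2 ratios exact conditional binomial and shares Clopper-Pearson intervals at 95%. The interval code was tried on made counts with known ratios. The members and lists were chosen with earlier results of these data known, and any gene of these lists, the checks and the 10 most similar genes could be named. Clusters, leading genes and Klf9, Errfi1 and the other list examples were chosen after their values were seen. Alternatives changed cells, doublets, clustering, scaling, thinning, fold and filter. Clustering used leidenalg 0.10.2, igraph 0.11.9 and scikit-learn 1.9.0, intervals scipy 1.17.1, tables pandas 2.3.3 and numpy 2.4.6, plots matplotlib 3.10.9, all under Python 3.11.15.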

Additional observations from a re-analysis of the deposited data

Results flagged for a closer look

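Among the 10 genes, 2 were past 2-fold in opposite directions in different classes, each difference between classes being untested and resting on 1 mouse per condition. Klf2 had a log2 ratio of 1.56 in AT2-like and -3.38 in alveolar fibroblast-like cells. The AT2-like ratio joins levels of 18.2 and 54.0 CPM, on either side of the red cell-like 38.4 and 38.7 CPM. In alveolar fibroblast-like cells Klf2 had 199 and 19.1 CPM. Each class reached the 10% of cells asked for only in the library with the higher level, at 6.99% and 20.04% of AT2-like and 30.6% and 4.94% of alveolar fibroblast-like cells.

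Egr1 had a log2 ratio of 1.24 in pericyte-like and -1.24 in alveolar fibroblast-like cells. The pericyte-like levels came from 31 and 130 UMIs, and the alveolar fibroblast-like direction reversed with no gene held out of clustering. Egr1 too passed the 10% only in the library where it was higher, at 6.28% and 10.5% of pericyte-like and 19.9% and 9.74% of alveolar fibroblast-like cells.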

How the results depend on the processing

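No paired analysis was possible because each condition had 1 mouse. The AT2-like sum moved least, from 0.54 to 0.56 with every barcode, 0.49 with abundant genes left out of the total and 0.51 with the median gene at 0. The ALMF-like sum, 0.49, was 0.36 with every barcode, 0.29 and 0.28 at resolution 0.5 and 2, 0.97 with each library clustered alone, 0.86 with genes centred within library, 0.0288 with no gene held out and 0.57 without doublets. The DMF-like sum, 0.36, was, in the order of these settings, 0.48, 0.55, 0.17, 0.11, 0.12 and, reversed, -0.20, and it was 0.33 with abundant genes left out, 0.34 with the median gene at 0 and 0.30 thinned. Counts of members past 2-fold changed too. In ALMF-like cells 1 higher (1.48% of all genes) became 6 clustered alone (2.73%), 3 centred (2.63%), 0 with no gene held out (1.72%) and 4 at 1.5-fold (5.74%), and 0 lower (0.937%) became 2 with no gene held out (1.2%). In DMF-like cells 0 higher (2.09%) became 1 with every barcode (2.11%), at resolution 0.5 (4.04%) and without doublets (2.01%), and 2 at 1.5-fold (5.67%). There 0 lower (1.13%) became 1 at resolution 2 (1.44%), clustered alone (1.38%), centred (1.5%) and at 1.5-fold (3.56%), and 2 with no gene held out (1.18%). In AT2-like cells 2 higher (0.882%) became 6 at 1.5-fold (3.49%) and 1 with 10% of cells asked of both libraries (0.542%), a rule chosen after seeing the data. Sums reversed in alveolar fibroblast-like (0.0475 with no gene held out, 0.0311 without doublets), immune-like (0.044 without doublets, 0.13 thinned) and red cell-like cells (-0.0231 with the median gene at 0), as did alveolar fibroblast-like Egr1 (0.16 with no gene held out). The cause was not tested. The adventitial fibroblast-like sum, near 0, took either sign. Of 17 member ratios past 2-fold, 177 of 188 alternative values stayed past it, and most of the others were of alveolar fibroblast-like Egr1. Klf2 in alveolar fibroblast-like cells ranged from -3.72 to -2.63, and Nr4a1 in adventitial fibroblast-like cells from -1.76 to -1.15. Leaving out the shallow AT2-like cluster, chosen after seeing the data, left that class's sum within its interval. That cluster, of 389 control and 200 HHIPCKO cells, had no higher sum in HHIPCKO itself, at 2916 and 2851 CPM. Atf3 there had 208 and 178 CPM, and Fos 288 and 433 CPM. Doublet scores removed 953 control and 1174 HHIPCKO cells. Thinned shares were lower than unthinned ones in 171 of 220 cases. Depth limits pericyte-like and immune-like cells most, with medians under 2000 UMIs.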
